A study of Rattus norvegicus with 54 samples.

Results

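Gastrocnemius muscle of lean rats was set against epididymal adipose tissue and liver of lean rats. The comparison used 9 of the 54 arrays of the study, 3 for each tissue. Muscle was compared with each of the other tissues and with their mean, and a transcript counted as set apart in muscle when all 3 differences had the same sign and an adjusted p under 0.05. All rats of the study were male Zucker rats. The lean rats carried fa/+, were fed normal chow and received no ligand. Untreated obese rats, fa/fa and also on normal chow, served here as other animals in which the same contrast could be read. Further obese rats received pioglitazone, rosiglitazone, troglitazone or AG035029, which the labels list as PPARγ ligands, and ages, doses and treatment times were not given in the sources used here. Each array held RNA pooled from 2 rats, and each group had 3 arrays. Nothing in the labels says whether the muscle, adipose and liver pools of 1 number came from the same rats, so p-values measure the spread between these pooled preparations.

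Skeletal muscle is built of multinucleate fibres packed with sarcomeres, in which myosin thick filaments pull on actin thin filaments anchored at the Z-disc. Calcium released from the sarcoplasmic reticulum starts contraction and its return ends it, and ATP is replaced through phosphocreatine, glycolysis and mitochondrial oxidation. The gastrocnemius is a mixed muscle of the hind limb in which fast fibres dominate. Many housekeeping enzymes have a separate muscle isoform, and muscle, unlike liver and adipose tissue, makes little fat and secretes few plasma proteins.

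The values were MAS5 signals, linear intensities on which each array is scaled to a common trimmed mean. Differences are given as log2(signal + 20), which understates the difference where 1 tissue is near background, and errors after ± are standard errors from limma with n = 3 arrays a group. Signals of different probe sets are not comparable, so levels of single genes were compared only within a probe set. Sums over probe sets are given to compare arrays, and the brightest probe sets weigh most in them. The median signal of an array was 215 to 231 for muscle, 238 to 248 for adipose tissue and 221 to 236 for liver. Arrays of 1 group correlated at r of 0.944 to 0.945 in muscle, 0.971 to 0.978 in adipose tissue and 0.930 to 0.939 in liver. The range of signals differed between tissues: the highest signal of an array was 65957 to 86056 in muscle and 83553 to 89105 in liver, but 17793 to 22301 in adipose tissue. Tissue and any difference in the handling of the arrays cannot be told apart. Each tissue was highest for its own markers. The summed signal of 12 fibre markers was 462653 to 537021 on the muscle arrays, 987 to 3052 on the adipose arrays and 1560 to 1812 on the liver arrays. The 12 adipocyte markers on the array summed to 7360 to 9596 in muscle and 67663 to 83712 in adipose tissue. The 20 hepatocyte markers summed to 1834 to 2370 in muscle and 649948 to 697341 in liver.

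Of 9519 probe sets tested, 1574 (16.5%) were set apart higher in muscle and 1513 (15.9%) lower. By at least 1 log2 unit against each of the other tissues, 870 (9.14%) were higher and 849 (8.92%) lower. Against the mean of the other tissues alone, 2594 (27.3%) were higher and 3019 (31.7%) lower. Against adipose tissue alone 25.5% were higher and 34.2% lower, 59.7% in all, and against liver alone 31.4% and 26.0%, 57.3% in all. The smaller of the differences from adipose tissue and from liver is called the margin below. The median margins of the 870 and 849 were close in size, 1.67 and −1.51, but the tails differed: 93 probe sets were higher by a margin of 5 or more and 7 were lower by as much, and the extremes were 9.99 and −6.80. The 870 probe sets made up 36.5 to 37.8% of the summed signal on the muscle arrays, 6.66 to 6.98% on the adipose arrays and 4.92 to 5.04% on the liver arrays. The muscle arrays did not overlap the other 6 for 867 of the 870 and 815 of the 849, where 19.7% and 17.5% of all probe sets tested had all muscle arrays above or below the others. Those probe sets were chosen on the same 9 arrays, so nothing is read from that. In whole tissue, fewer cells of a type and less RNA per cell cannot be told apart.

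**Figure D1:**
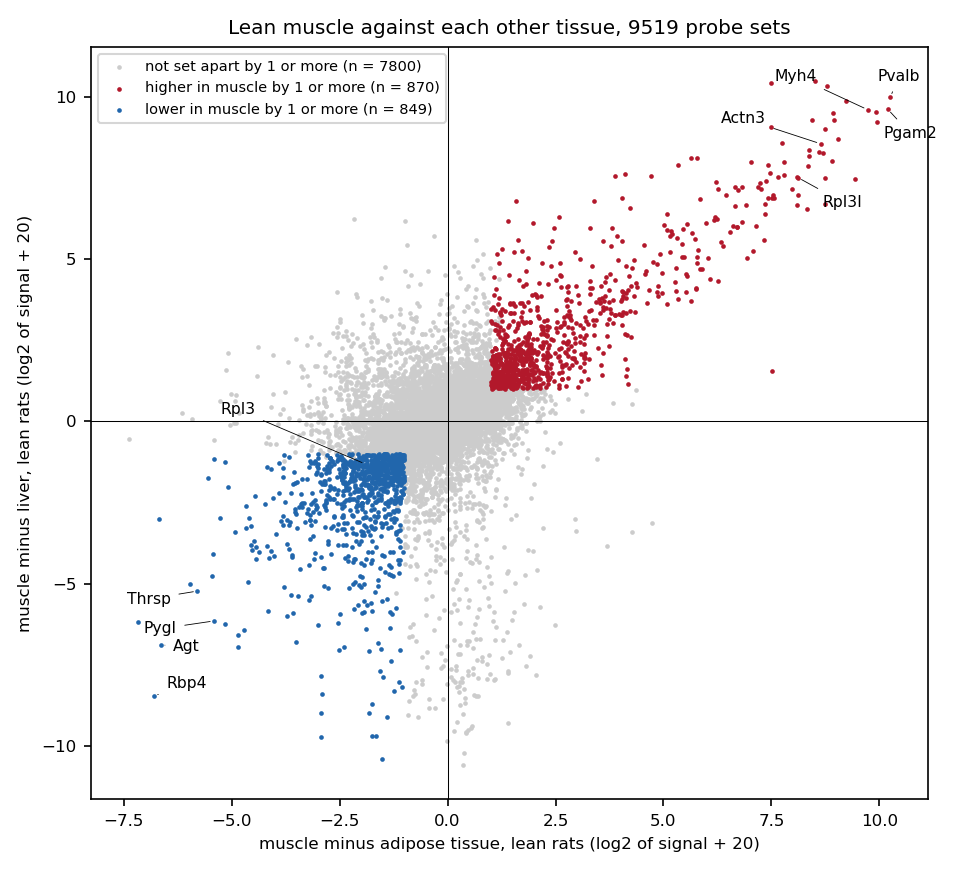
Each point is 1 of 9519 probe sets, with the difference of lean muscle from adipose tissue on the x axis and from liver on the y axis, both in log2(signal + 20) from means of 3 arrays. The 870 probe sets higher by 1 or more (red) reach margins near 10, while the 849 lower ones (blue) end near −7.

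The 12 genes with the highest margins were Pvalb, Pgam2, Myh4, Cox8b, Eno3, Mb, Myl11, Neb, Actn3, Mybpc1, Tnni2 and Cmya5. They were picked for this value, so their p-values describe them and lend no further support. Pvalb encodes parvalbumin, the soluble calcium buffer of fast fibres. Its signals were 37813, 39959 and 40636 in muscle, 11.8, 15.2 and 10.5 in adipose tissue and 13.4, 14.7 and 30.5 in liver, so muscle stood apart on every array and the other tissues were near the bottom of the signal range. The difference from the mean of the other tissues was 10.12 ± 0.18 (adjusted p = 2.13e-12). Pgam2, the muscle phosphoglycerate mutase of glycolysis, read 33360, 32607 and 33990 in muscle, 6.80, 7.10 and 11.7 in adipose tissue and 25.1, 32.6 and 11.1 in liver, a difference of 9.91 ± 0.19. Myh4, the myosin heavy chain of the fastest fibres, read 29249, 33524 and 27431 in muscle, with no adipose array above 50.4 and no liver array above 54.9. The muscle signals lay close together, while the low signals of the other tissues scattered from 3.40 to 54.9, and the difference was 9.67 ± 0.38. Mb, encoding the oxygen store myoglobin, read 40526, 30568 and 26909 in muscle against 5.0 to 17.2 in adipose tissue and 15.2 to 79.9 in liver. Cmya5, the Z-disc-associated myospryn, read 13158, 11609 and 13737 in muscle and at most 30.4 elsewhere.

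**Figure D2:**
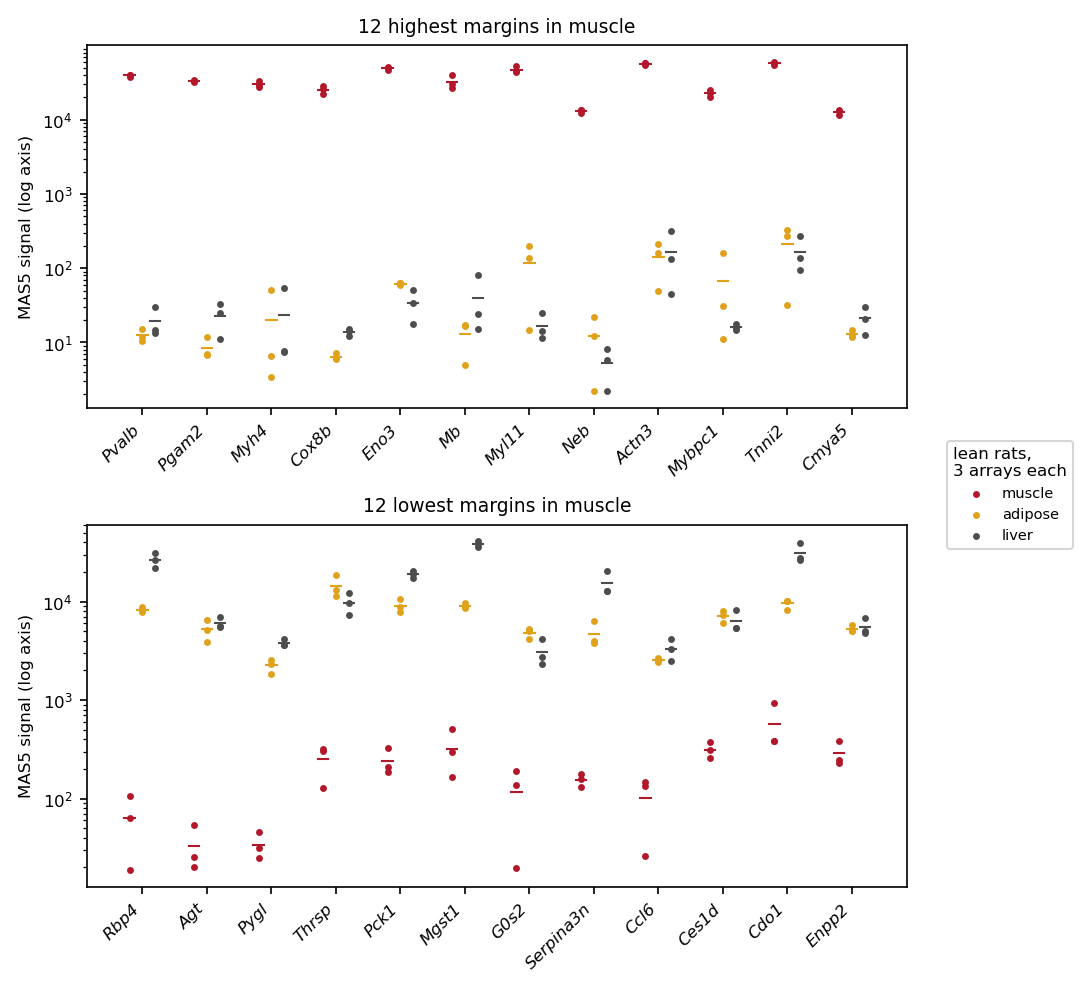
Signals on the 9 lean arrays (log axis) for the 12 genes with the highest and the 12 with the lowest margins; points are arrays and short bars are group means, and levels are to be compared within a gene only. Muscle points lie clear of all others in both panels, tightly grouped when high and scattered when low.

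The thick filament list held 18 genes on the array, of which 15 were tested. Of those, 14 were set apart higher and 0 lower, with a median difference of 7.72, where 16.6% of all 7111 genes tested were set apart higher and the median over them was −0.07. The filter works on the mean over all 9 arrays, so a gene low in both other tissues was tested only where muscle was high. Counts for this and the other lists of muscle genes follow in part from that. Myh4, Mybpc1, Myh7 and Myl11 had the largest differences. Myh7, the heavy chain of slow fibres, read 18559, 15112 and 10760 in muscle, 6.4 to 15.8 in adipose tissue and 32.5 to 42.0 in liver, so transcripts of slow as well as fast myosin were high here (8.47 ± 0.22, adjusted p = 1.85e-11). Another Myh7 probe set gave 6.04. Mybpc1, a myosin-binding protein C of slow fibres, had a mean signal of 22824 in muscle, 68.1 in adipose tissue and 16.0 in liver. Ttn, titin, the elastic filament of the sarcomere, had means of 27889, 111 and 67.5. The gene tested that was not set apart was listed as Myh1, the heavy chain of another fast fibre type, and its brightest probe set gave means of 7352 in muscle, 3328 in adipose tissue and 11383 in liver and was not set apart. Its 4 other probe sets ran from −0.20 to 0.80 and were not set apart either. Each of the 5 read higher in liver than in muscle by the group means, and whether they measure Myh1 could not be checked here. Developmental Myh3 and Myh8 had muscle means of 23.3 and 42.5 and were not tested.

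Of 25 thin filament and Z-disc genes tested, 23 were set apart higher and 1 lower, with a median of 5.75. Acta1, skeletal actin, read 62170, 64596 and 57915 in muscle. Its adipose signals were 55.0, 785 and 658 and its liver signals 80.5, 10.3 and 9.80, so the adipose arrays did not form 1 level, and the same arrays differed in Myl11 (14.9, 202 and 137) and Actn3 (48.7, 212 and 159). The summed fibre markers were 987 on adipose replicate 1 and 3052 and 2619 on the other two, and the part of this in the results was not tested. The Acta1 difference was 8.95 ± 0.63, and it was called as well with each adipose array left out in turn. Nebulin, the thin filament ruler, read 13714, 13685 and 12259 in muscle and no more than 22.2 elsewhere. Tcap, the cap that joins titin at the Z-disc, had means of 20507, 30.3 and 48.2. Slow troponins were also higher: Tnni1 had means of 3191 in muscle, 204 in adipose tissue and 261 in liver, and Tnnc1 had 5165, 93.5 and 132. The gene set apart lower was Tpm3, a tropomyosin with muscle and non-muscle products. Its brightest probe set read 950, 899 and 788 in muscle, 2844 to 3222 in adipose tissue and 1188 to 1550 in liver, a difference of −1.19 ± 0.12 (adjusted p = 3.52e-06). Its 10 other probe sets ran from −3.37 to 3.59, so the direction for Tpm3 depends on the probe set, and with probe sets averaged the list had 0 genes set apart lower.

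Excitation and calcium handling followed the same pattern, with 15 of 16 genes tested set apart higher, 0 lower and a median of 6.08. Ryr1, the calcium release channel of the sarcoplasmic reticulum, read 7903, 7922 and 10472 in muscle, 23.8 to 34.5 in adipose tissue and 21.7 to 25.6 in liver. Its muscle signals lay far above all others, a difference of 7.56 ± 0.19 (adjusted p = 1.95e-11). Atp2a1, the calcium pump of fast fibres, read 58849, 54060 and 50548 in muscle and 167 to 279 elsewhere, a difference of 7.69 ± 0.15. Trdn, triadin, which ties the release channel to the calcium store, had means of 12882, 31.4 and 79.4, and its 3 other probe sets ranged from 2.20 to 6.98. Casq1, the calcium store protein calsequestrin, had 25448, 150 and 159. Clcn1, the chloride channel of the fibre membrane, was the gene tested that was not set apart, with means of 338, 89.3 and 291. Cacna1s, the voltage sensor, had means of 4144, 3.57 and 15.0 and lay below the filter, which works on the mean over all 9 arrays and so leaves out some genes that are high in muscle alone.

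At the neuromuscular junction and membrane scaffold, 5 of 7 genes tested were set apart higher and 0 lower, with a median of 1.84. The largest differences were those of Sgcb and Sgca, sarcoglycans of the membrane complex around dystrophin, and Itgb1bp2, which binds integrin. Sgcb read 2279, 2293 and 1941 in muscle, 320 to 444 in adipose tissue and 8.20 to 21.9 in liver, so adipose tissue stood between the other tissues. The difference was 4.22 ± 0.20 (adjusted p = 2.63e-09). Itga7, the laminin receptor subunit of fibres, was not set apart, with means of 588 in muscle and 3398 in adipose tissue. The 5 acetylcholine receptor subunits listed, with muscle means of 49.5 (Chrng) to 265 (Chrnb1), lay below the filter.

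Among myogenic factors, 6 of 9 genes tested were set apart higher and 0 lower, with a median of 2.37. Mef2c, a transcription factor of muscle gene programmes, read 7421, 7013 and 7935 in muscle, 370 to 490 in adipose tissue and 14.2 to 19.4 in liver (5.87 ± 0.15, adjusted p = 1.73e-11). Myf6, a myogenic regulator kept in adult fibres, read 2617, 3145 and 1895 in muscle and at most 87.1 elsewhere. Csrp3, a muscle LIM protein of the Z-disc, and Myog, myogenin, were higher by 5.02 ± 0.30 and 2.48 ± 0.25. Myod1 had means of 555, 5.20 and 47.7, and Mstn, the growth inhibitor myostatin, had 387, 12.7 and 69.6, both below the filter. Klf15, Fst and Mef2d were not set apart.

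All 7 genes of energy buffering and the purine cycle were set apart higher, with a median of 7.2. Ckm, the creatine kinase of the muscle cytosol, read 80538, 86056 and 65957 in muscle, 183 to 580 in adipose tissue and 372 to 434 in liver. The groups lay far apart, by 7.58 ± 0.26 (adjusted p = 2.16e-10). Ckmt2, the mitochondrial creatine kinase, read 26730, 18034 and 16675 in muscle and at most 106 elsewhere. Ampd1, the AMP deaminase of muscle, was higher by 7.2 ± 0.29 and Adss1, its partner in the cycle, by 6.46. Slc6a8, the creatine transporter, was higher by 1.62, with means of 1882, 1296 and 267, and was the member with a margin under 1.

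Of 25 genes of glycogen and glycolysis tested, 19 were set apart higher and 1 lower, with a median of 3.47. Steps from the glycogen store to lactate were covered. Pygm, muscle glycogen phosphorylase, read 11850, 14510 and 12023 in muscle, 168 to 203 in adipose tissue and 72.5 to 310 in liver (6.05 ± 0.29), and its 2 other probe sets gave 7.40 and 9.22. Pfkm, muscle phosphofructokinase, read 21707, 21201 and 21322 in muscle and 341 to 646 elsewhere (5.43 ± 0.11, adjusted p = 3.76e-12). Eno3, the muscle enolase, read 49606, 51459 and 47060 in muscle and at most 63.4 elsewhere (9.56 ± 0.18). Tpi1 and Pgk1, enzymes of the middle of the pathway, were higher by 2.88 and 2.64, and Ldha, which makes lactate, by 1.80. Slc2a4, the insulin-responsive glucose transporter, read 4002, 4134 and 3683 in muscle, 1562 to 2056 in adipose tissue and 173 to 244 in liver, so its margin of 1.12 was set by adipose tissue. Slc16a3, a lactate exporter, was higher by 4.84, while Slc16a1, another monocarboxylate carrier, was the gene set apart lower. Slc16a1 read 1006, 877 and 738 in muscle, 1373 to 2062 in adipose tissue and 1331 to 1660 in liver (−0.81 ± 0.16, adjusted p = 0.000796). Hk1, Hk2, Gbe1, Ugp2 and Ldhb were not set apart.

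Mitochondrial genes differed by less but nearly all in the same direction. Of 48 citrate cycle and respiratory chain genes tested, 44 were set apart higher and 2 lower, with a median of 1.55. Idh3a, a subunit of isocitrate dehydrogenase, read 6113, 5008 and 6239 in muscle, 750 to 970 in adipose tissue and 320 to 497 in liver (3.26 ± 0.15, adjusted p = 2.98e-09). Subunits of every complex were among those set apart: Ndufs1 of complex I by 2.28, Sdhb of complex II by 1.44, Uqcrfs1 of complex III by 1.57, Cox4i1 of complex IV by 1.55 and Atp5f1a of the ATP synthase by 1.48. Cs, citrate synthase, had means of 6954 in muscle, 4503 in adipose tissue and 471 in liver. Far above the rest of the list stood Cox8b, Cox6a2 and Slc25a4, with differences of 9.73, 8.46 and 5.10. Those set apart lower were Cox6a1 and Cox8a, the forms of the same cytochrome oxidase subunits found in most tissues.

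Such opposite differences between isoforms recurred elsewhere. Of 36 pairs of a muscle and another form listed, 28 had both forms on the array and 23 had both tested. The muscle form was set apart higher in 22 of the 23. In 10 of these the other form was set apart lower, in 12 the other form was not set apart, and in 0 was the other form set apart higher. Of all genes tested, 16.6% were set apart higher and 16.1% lower. The muscle forms were named as such beforehand, and the filter on the mean over all 9 arrays includes muscle. A form near background in both other tissues was thus tested only where it was high in muscle. The 22 of 23 is therefore a description and lends no support. The 10 include Casq1 and Calr, which are different proteins and not forms of the same one. Fabp3 was paired with Fabp4 and Fabp1, and Actn3 with Actn1 and Actn4, so both muscle forms are counted again. The remaining pair was Tpm2 and Tpm4, with neither form set apart. Pgam2 and its counterpart Pgam1 illustrate the pattern: Pgam1 read 1340, 856 and 840 in muscle, 4407 to 4653 in adipose tissue and 1947 to 3590 in liver, so the muscle arrays were the lowest of the 9 (−1.76 ± 0.19, adjusted p = 5.98e-06). Cox8b read 25944, 28084 and 22558 in muscle, 5.90 to 7.2 in adipose tissue and 12.3 to 15.1 in liver, while Cox8a read 3064, 2622 and 2761 in muscle, 10128 to 12028 in adipose tissue and 5504 to 6602 in liver. Cox6a2 read 23516, 21774 and 20855 in muscle and at most 114 elsewhere, while Cox6a1 read 1223, 1056 and 1187 in muscle and 4394 to 7182 elsewhere. The ADP/ATP carriers divided likewise: Slc25a4 had means of 44177, 4180 and 377 in muscle, adipose tissue and liver, and Slc25a5 had 1071, 6900 and 10115. Protein synthesis had such pairs too. Eef1a2, a translation elongation factor form of muscle and nerve, had means of 5224, 166 and 314, and the widespread Eef1a1 had 3640, 10969 and 10968. Rpl3l, the muscle form of a ribosomal protein, had 10201, 20.5 and 39.4, and Rpl3 had 2785, 10328 and 6986. Glycogen phosphorylase had the widest opposite differences, 6.05 for Pygm and −5.77 for Pygl.

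**Figure D3:**
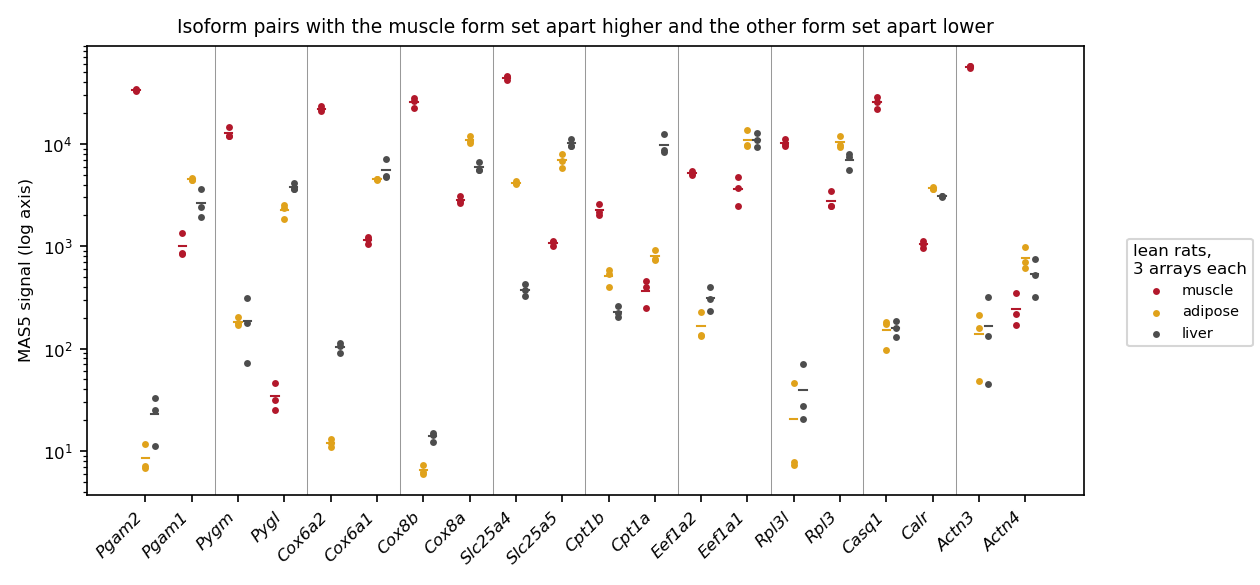
Signals on the 9 lean arrays (log axis) for the 10 pairs in which the muscle form was set apart higher and the other form lower; points are arrays, short bars are group means, and levels are to be compared within a gene only. In each pair the red muscle points are the highest of the left gene and, except for single arrays of Actn4, the lowest of the right gene.

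In the other 12 pairs the second form was not set apart from both tissues, which does not show that its level was the same. Eno1 read 1986, 2112 and 1967 in muscle, 3589 to 5214 in adipose tissue and 2138 to 2725 in liver, below every other array, but its difference from liver had an adjusted p of 0.236. Ldhb, the lactate dehydrogenase form of oxidative tissue, had means of 3554 in muscle, 4510 in adipose tissue and 156 in liver. Fabp4, the adipocyte fatty acid binding protein, had 2694, 12121 and 15.4, so muscle lay between the other tissues, and Ckb, brain-type creatine kinase, differed by −0.11 ± 0.35. Fbp1, Fabp1 and Slc2a2 were liver genes, with muscle means of 34.7, 76.8 and 11 and liver means of 18304, 51702 and 8052.

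To show the DNA before the start of such genes, 250 bases upstream were read from RefSeq promoters on GRCr8 for 4 muscle forms, 2 counterparts and skeletal actin. They were picked after the matches were seen, to show windows with and without them. Letters searched were the E-box CAGCTG, the M-CAT element CATTCC, the MEF2 letters CTAAAAATA and the CArG box, on both strands, and TATAAA on the gene's strand, each counted by itself even where matches overlap. Matches are in capitals and are a description, not a site or a cause. The windows were chr14:84897875-84898124 on the minus strand for Pgam2, chr1:250672902-250673151 on the plus strand for Pgam1, chr1:205408274-205408523 on the minus strand for Cox8b, chr1:213833624-213833873 on the minus strand for Cox8a, chr1:192219717-192219966 on the minus strand for Cox6a2, chr16:52805271-52805520 on the plus strand for Slc25a4 and chr19:68784195-68784444 on the minus strand for Acta1.
Pgam2: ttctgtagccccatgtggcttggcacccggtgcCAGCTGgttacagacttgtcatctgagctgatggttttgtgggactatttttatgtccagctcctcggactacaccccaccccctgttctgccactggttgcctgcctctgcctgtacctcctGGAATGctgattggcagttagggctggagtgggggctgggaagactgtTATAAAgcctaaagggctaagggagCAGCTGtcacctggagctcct
Pgam1: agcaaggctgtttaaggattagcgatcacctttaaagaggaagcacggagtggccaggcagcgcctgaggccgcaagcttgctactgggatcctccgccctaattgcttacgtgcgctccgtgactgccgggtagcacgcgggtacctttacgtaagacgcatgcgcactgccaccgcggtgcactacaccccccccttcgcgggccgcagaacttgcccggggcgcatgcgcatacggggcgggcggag
Cox8b: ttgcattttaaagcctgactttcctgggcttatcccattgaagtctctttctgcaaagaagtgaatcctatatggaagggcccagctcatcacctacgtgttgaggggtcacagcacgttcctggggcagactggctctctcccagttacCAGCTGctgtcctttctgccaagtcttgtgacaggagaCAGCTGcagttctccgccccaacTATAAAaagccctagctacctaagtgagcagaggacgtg
Cox8a: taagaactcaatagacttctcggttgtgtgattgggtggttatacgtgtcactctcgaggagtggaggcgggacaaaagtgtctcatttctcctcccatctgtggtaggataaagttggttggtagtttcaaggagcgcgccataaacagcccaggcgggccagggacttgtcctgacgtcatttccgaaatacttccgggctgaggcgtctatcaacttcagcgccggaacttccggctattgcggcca
Cox6a2: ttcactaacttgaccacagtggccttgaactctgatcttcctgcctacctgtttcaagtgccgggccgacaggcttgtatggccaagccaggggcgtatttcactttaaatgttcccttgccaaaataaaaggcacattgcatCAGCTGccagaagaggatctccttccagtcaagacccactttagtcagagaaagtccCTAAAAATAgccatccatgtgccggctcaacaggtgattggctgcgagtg
Slc25a4: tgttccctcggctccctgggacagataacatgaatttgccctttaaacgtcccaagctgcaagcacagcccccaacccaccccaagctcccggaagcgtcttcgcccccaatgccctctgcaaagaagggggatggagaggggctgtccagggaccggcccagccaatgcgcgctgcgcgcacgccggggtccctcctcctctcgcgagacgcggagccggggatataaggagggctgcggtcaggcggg
Acta1: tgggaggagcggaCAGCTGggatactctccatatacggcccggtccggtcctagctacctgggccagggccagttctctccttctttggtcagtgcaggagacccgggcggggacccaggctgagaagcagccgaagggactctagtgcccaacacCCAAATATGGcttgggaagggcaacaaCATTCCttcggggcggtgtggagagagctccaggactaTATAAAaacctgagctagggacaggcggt

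The windows of Pgam2 and Cox8b held 2 E-boxes each and those of Cox6a2 and Acta1 held 1, while those of Pgam1, Cox8a and the muscle form Slc25a4 held no match to any of the letters. Many muscle genes were like Slc25a4: Pvalb, Neb, Actn3, Tnni2, Cmya5 and Eef1a2 had no match, and Eno3 and Rpl3l had CATTCC but no E-box. Cox6a2 also held the MEF2 letters and Acta1 a CArG box and an M-CAT element. Among the 75 genes higher in muscle by a margin of 5 or more, 59 had a promoter in the table, and 18 of these (30.5%) held CAGCTG. The share was 15.3% of 557 genes higher by 1 or more, 10.9% of 503 genes lower by 1 or more, 12% of 5963 genes tested and 11.9% of all 27457 promoters. CATTCC was in 20.3% of the 59 but in 10.8% of the genes higher by 1 or more and 12.9% of those lower, against 10.1% of the genes tested and 11.8% of all promoters. CTAAAAATA was in 1 of the 59 (1.69%), that of Cox6a2, against 0.302% of the genes tested and 0.463% of all promoters. The CArG box was in 3 of the 59 (5.08%), against 1.34% and 1.5%. TATAAA was in 9 of the 59 (15.3%), against 4.88% and 8.38%. TATAAA was in 6.46% of the genes higher by 1 or more and 6.16% of those lower.

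Fatty acid oxidation had members in both directions. Of 27 genes tested, 7 were set apart higher and 4 lower, where 16.6% and 16.1% of all genes tested were, and the median was −0.13. Fabp3, the fatty acid binding protein of heart and muscle, read 9347, 6601 and 4995 in muscle, 88.5 to 221 in adipose tissue and 59.7 to 146 in liver, so the muscle arrays varied among themselves yet lay well above the rest (5.49 ± 0.31). Entry into mitochondria split by isoform. Cpt1b, the muscle carnitine palmitoyltransferase, read 2593, 2176 and 2022 in muscle and 202 to 591 elsewhere (2.66 ± 0.16), while Cpt1a read 456, 400 and 248 in muscle, 738 to 923 in adipose tissue and 8229 to 12429 in liver (−2.90 ± 0.19). Another Cpt1a probe set differed by −0.36 from adipose tissue and −3.03 from liver. Pdk4, a kinase that holds back glucose oxidation, read 3785, 2779 and 1309 in muscle and 317 to 909 elsewhere (2.29 ± 0.33). Acsl1, which activates long-chain fatty acids, and Decr1, which helps oxidise unsaturated ones, were lower by −1.80 ± 0.12 and −1.77 ± 0.15. The mitochondrial enzymes Acadvl, Acads, Hadha and Cpt2 had differences from −0.14 to 0.06 and were not set apart. Probe sets of other members differed more from the mean of the other tissues, by 0.95 for Hadhb, 1.08 for Acadm and −0.55 for Eci1. In the list of protein turnover in muscle, 2 of 9 genes tested were higher (Bcat2 and Glul) and 2 lower (Cish and Cdkn1a), and of these only Bcat2 had muscle arrays that did not overlap the others. Other Glul probe sets gave 0.20 and 0.88. With probe sets averaged 1 of 6 genes tested was higher and 1 lower, and quantile normalization also left 1 and 1. In untreated obese rats 1 of the higher and 0 of the lower genes were called again. The atrophy ligases Trim63 and Fbxo32, with muscle means of 2626 and 271 and means of at most 35.1 in the other tissues, were below the filter.

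The 12 lowest margins belonged to Rbp4, Agt, Pygl, Thrsp, Pck1, Mgst1, G0s2, Serpina3n, Ccl6, Ces1d, Cdo1 and Enpp2, again picked for this value. Rbp4, the plasma carrier of retinol, read 63.7, 18.6 and 107 in muscle, 7852 to 8827 in adipose tissue and 21944 to 31313 in liver, a difference of −7.64 ± 0.28 (adjusted p = 3.49e-10). Agt, the precursor of angiotensin, read 53.5, 20.3 and 25.2 in muscle, 3917 to 6569 in adipose tissue and 5575 to 6970 in liver (−6.77 ± 0.21). In both genes adipose tissue and liver were bright and muscle was at the foot of the range. Pck1, which makes phosphoenolpyruvate for glucose and glyceride-glycerol, read 185, 207 and 325 in muscle, 7763 to 10660 in adipose tissue and 17324 to 20545 in liver. G0s2, an inhibitor of the triglyceride lipase, read 138, 19.5 and 190 in muscle and 2318 to 5215 elsewhere. Enpp2, which makes lysophosphatidic acid, read 248, 230 and 384 in muscle and 4781 to 6865 elsewhere.

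Genes that make lipid were low in muscle. Of 19 genes of fatty acid and triglyceride synthesis tested, 12 were set apart lower and 0 higher, with a median of −2.16. Thrsp, a nuclear protein tied to lipogenesis, read 129, 322 and 304 in muscle, 11393 to 18777 in adipose tissue and 7246 to 12205 in liver (−5.51 ± 0.26). Fasn, fatty acid synthase, read 42.4, 32.9 and 305 in muscle, 9039 to 11471 in adipose tissue and 482 to 1141 in liver, so muscle replicate 3 lay above the other two but below every array of the other tissues (−4.84 ± 0.47, adjusted p = 2.08e-06). Scd, stearoyl-CoA desaturase, and Acly, ATP citrate lyase, were lower by −4.12 ± 0.27 and −3.88 ± 0.23. Gpd1, which supplies glycerol phosphate, was not set apart, with means of 8791, 8917 and 4471. In cholesterol synthesis 5 of 11 genes tested were lower and 0 higher, and 3 of 8 with probe sets averaged. Insig1, a sterol sensor partner, read 376, 454 and 436 in muscle, 4826 to 5174 in adipose tissue and 2789 to 3813 in liver (−3.18 ± 0.13).

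Of 25 complement, plasma and xenobiotic genes, 19 were set apart lower and 1 higher, with a median of −3.20. Mgst1, a membrane glutathione transferase, read 294, 164 and 506 in muscle, 8618 to 9748 in adipose tissue and 36007 to 41231 in liver (−5.90 ± 0.24). Hp, haptoglobin, read 41.5, 18.1 and 125 in muscle, 160 to 250 in adipose tissue and 53647 to 64071 in liver, so its margin of −1.65 was set by adipose tissue. The member set apart higher was Aldh1a1, a retinaldehyde dehydrogenase, which read 3956, 3892 and 2968 in muscle, 212 to 365 in adipose tissue and 975 to 1178 in liver (2.65 ± 0.17, adjusted p = 4.63e-08). Of the markers that define the other tissues, 0 of 10 adipocyte genes tested were set apart from both tissues, and 5 of 19 hepatocyte genes were lower. Over all genes tested 16.6% were set apart higher and 16.1% lower. A marker low in both muscle and 1 other tissue could hardly be set apart from both. The adipocyte medians were −3.24 against adipose tissue and −0.05 against liver, and the hepatocyte medians were 0.36 and −8.15. Lipe, hormone-sensitive lipase, had a mean of 32.8 in muscle against 8618 in adipose tissue, and Fabp4 and Lpl had 2694 and 2957 in muscle. Alb, albumin, had means of 153 in muscle, 1345 in adipose tissue and 85564 in liver.

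Most genes of the secretory pathway were lower. Of 24 genes tested, 19 were set apart lower and 1 higher, with a median of −1.40. Pdia4, a disulfide isomerase of the endoplasmic reticulum, read 178, 58.6 and 181 in muscle, 996 to 1098 in adipose tissue and 4847 to 5046 in liver (−3.97 ± 0.25). Tram1, of the translocation channel, read 874, 838 and 872 in muscle, 2269 to 2840 in adipose tissue and 7310 to 8051 in liver, and Sec61b, a subunit of the channel, was lower by −1.94 ± 0.14. Sar1b, a GTPase of the coat that buds from the endoplasmic reticulum, was the exception, with 11957, 10704 and 9260 in muscle, 1043 to 1111 in adipose tissue and 3524 to 5121 in liver (2.28 ± 0.13). Of 17 lysosomal genes, 11 were lower and 0 higher, with a median of −1.0. Lamp2, a lysosomal membrane protein, and Ctsb, a cathepsin, were lower by −2.92 ± 0.21 and −2.36 ± 0.21. Of 15 peroxisomal genes, 7 were lower, 2 of them by 1 or more, and 0 higher, where 16.1% of all genes tested were set apart lower. Their medians were −0.55 against adipose tissue and −2.47 against liver. Hacl1, of fatty acid alpha-oxidation, read 9.40, 62.9 and 101 in muscle, 210 to 248 in adipose tissue and 4458 to 7909 in liver. Cat, catalase, was lower by −1.68 ± 0.16, with −0.55 against adipose tissue and −2.82 against liver. With all arrays centred on their medians, 5 peroxisomal genes were set apart.

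Ribosomal and proteasome lists had members in both directions. Of 16 ribosomal protein genes tested, 3 were higher and 2 lower, near the shares of 16.6% and 16.1% over all genes tested. The median of 0.30 went to 0.02 under quantile normalization, where 1 gene was higher. The medians over all probe sets tested were −0.14 against adipose tissue and 0.09 against liver, and quantile normalization moved the former to −0.02. Rpl3 stood out among them, with 2486, 2449 and 3422 in muscle, 9282 to 11866 in adipose tissue and 5553 to 7971 in liver (−1.61 ± 0.15). Of 25 proteasome genes, 9 were higher, above the share over all genes tested, and 4 lower, near that share. Psmb5, a catalytic subunit of the standard proteasome, read 6885, 6401 and 7103 in muscle and 2402 to 3676 elsewhere (1.21 ± 0.12). Of the 4 that were lower, 3 were Psmb8, Psmb9 and Psmb10, the catalytic subunits of the immunoproteasome. Psmb8 read 320, 373 and 369 in muscle and 1379 to 2011 elsewhere (−2.13 ± 0.14, adjusted p = 5.86e-08), and Psmb9 was lower by −1.69 ± 0.20.

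Those subunits were lower beside the macrophage and antigen presentation list, in which 12 of 19 genes tested were lower and 0 higher, with a median of −1.33. The summed signal of the 23 on the array was 17547 to 18814 in muscle, 51492 to 58161 in adipose tissue and 46125 to 53062 in liver. Most of the liver sum was B2m, which read 29585 to 34712 in liver, 11650 to 14343 in adipose tissue and 7007 to 8294 in muscle. The sum is therefore not a measure of macrophages alone, and its part in the other results was not tested. Cd14, a receptor for bacterial lipopolysaccharide, read 282, 220 and 252 in muscle and 1294 to 2764 elsewhere (−2.90 ± 0.20), and C1qc, of complement C1q, read 273 to 451 in muscle and 822 to 3812 elsewhere. Endothelial genes had 1 of 11 set apart, Kdr, a receptor for VEGF, lower by −1.67 ± 0.19. Of all genes tested, 16.6% were set apart higher and 16.1% lower, so the endothelial list lay below both shares. Of 32 extracellular matrix genes, 3 were higher and 1 lower, also below those shares. The matrix median was 0.50 against the mean of the other tissues, but −1.14 against adipose tissue and 2.22 against liver. Under quantile normalization 1 matrix gene was higher. Thbs4, thrombospondin 4, read 3550, 1697 and 1796 in muscle, 61.5 to 93.8 in adipose tissue and 111 to 227 in liver (4.14 ± 0.28). The fibrillar collagen Col1a2 read 17934, 9353 and 12103 in muscle, 5035 to 5841 in adipose tissue and 344 to 573 in liver, and Fn1, fibronectin, was lower by −1.75 ± 0.15. Lists of erythrocyte, nerve, brown-fat-associated and smooth muscle genes had 0 of 5, 1 of 6, 1 of 3 and 1 of 11 genes set apart higher and 0, 0, 1 and 1 lower. Their sums varied within muscle, from 14299 to 37792 for erythrocyte genes and from 3326 to 7535 for nerve genes. The nerve gene Mbp, of myelin, read 624, 505 and 1387 in muscle and 164 to 318 elsewhere. It was highest on the array with the highest nerve sum, but Mbp is itself a part of that sum. The part of nerve in this was not tested.

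**Figure D4:**
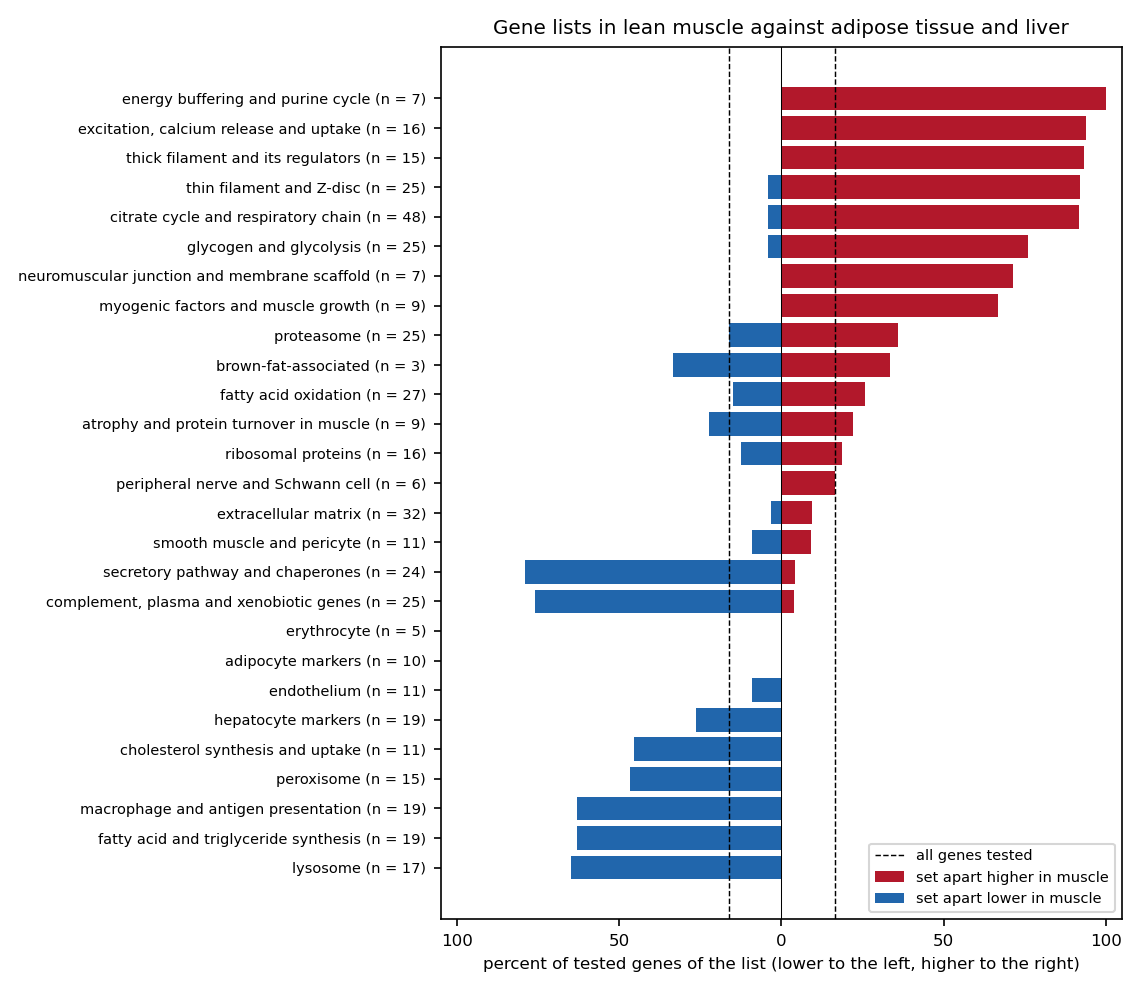
Bars give the percent of the tested genes of each list set apart higher (right, red) or lower (left, blue) in lean muscle, with the number tested in brackets; dashed lines mark the 16.6% and 16.1% over all genes tested. Contractile, energy and mitochondrial lists reach far to the right, and lysosomal, lipid synthesis, secretory and plasma lists to the left.

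In untreated obese rats, whose arrays played no part in choosing these transcripts, the same contrast gave 1509 (15.9%) probe sets set apart higher and 1407 (14.8%) lower of the 9519. Of the 870 higher in lean muscle by 1 or more, 828 (95.2%) were set apart higher there too, and of the 849 lower ones 718 (84.6%) were set apart lower. No probe set was called the opposite way. Counting those past a margin of 1 in both, 722 were shared on the higher side, 83.0% of the lean list and 83.7% of the 863 in the obese list. On the lower side 611 were shared, 72.0% of the lean and 71.5% of the 854 in the obese list. Pvalb read 36081, 27258 and 37044 in obese muscle and at most 28.4 elsewhere, as in lean rats. Agt had adipose means of 5212 in lean and 1462 in obese rats, and its difference was −6.77 in lean and −5.49 in obese rats. Among those with no call in obese rats were Alb, Pik3r1, Gpnmb and Per1 on the lower side and Cd24, Cacng6, Aldh1a1 and Mbp on the higher, named after their values were seen. A missing call does not show that the contrast differed.

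**Figure D5:**
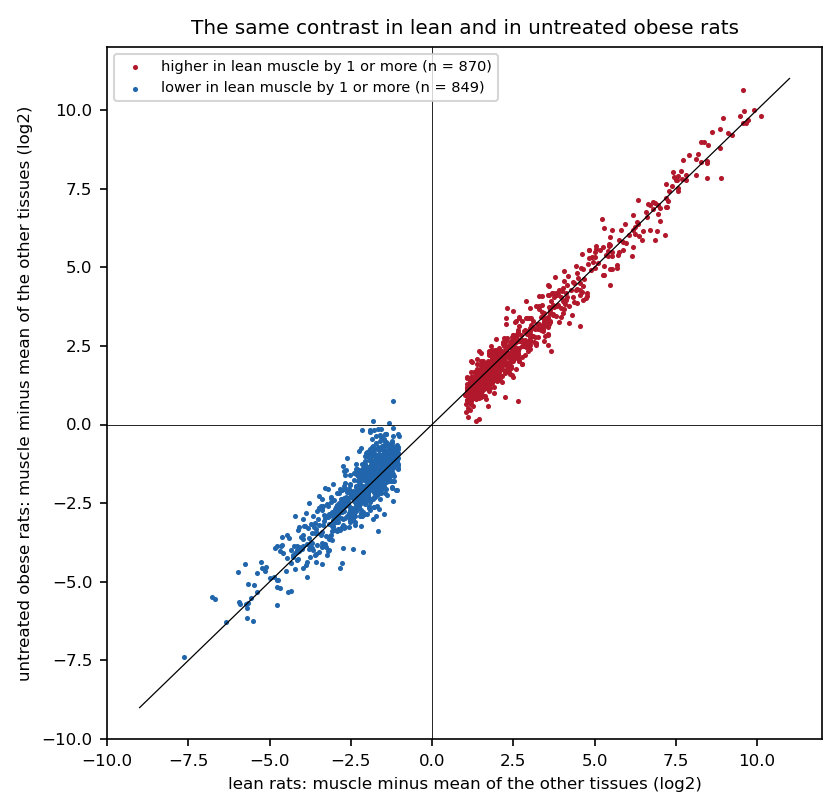
Each point is 1 of the 870 probe sets higher (red) or 849 lower (blue) in lean muscle by 1 or more; the x axis gives muscle minus the mean of the other tissues in lean rats and the y axis the same in untreated obese rats, in log2(signal + 20). Points follow the line of equal differences, with more scatter among the lower ones.

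The difference between the contrasts was tested directly, as obese minus lean of muscle minus the mean of the other tissues. It was called for 2 probe sets (0.0210%) upward and 5 (0.0525%) downward of 9519, and 791 had an unadjusted p under 0.05. Pparg, the nuclear receptor that the study's ligands bind, read 314, 213 and 294 in lean and 31.4, 48.2 and 51.3 in obese muscle, and 2522 to 2979 in lean and 1244 to 1427 in obese adipose tissue. The muscle signals of obese rats were thus all below those of lean rats, and the contrast differed by −1.84 ± 0.28 (adjusted p = 0.010). Tff3, a small secreted trefoil peptide, read 473, 363 and 399 in lean and 58.1, 55.5 and 88.6 in obese muscle, with 181 to 303 and 140 to 237 in adipose tissue (−2.06 ± 0.30, adjusted p = 0.010). In the ligand-treated obese groups the muscle means were 230 to 268 for Pparg and 245 to 425 for Tff3. The low muscle level of both was thus seen in the untreated obese group alone. For Prkaa2, the AMP-activated kinase subunit common in muscle, the muscle arrays of lean and obese rats overlapped, with 6867 to 7858 in lean and 5948 to 8992 in obese rats. The adipose arrays did not overlap, with 15.1 to 24.6 in lean and 227 to 310 in obese rats (−1.41 ± 0.22, adjusted p = 0.010). Plin2, a lipid droplet coat protein, likewise read 392 to 489 and 288 to 451 in muscle, but 1486 to 1934 and 5152 to 5542 in adipose tissue (−1.53 ± 0.27, adjusted p = 0.0426). Without muscle replicate 3 of the lean rats no probe set was called, and without liver replicate 1 of the obese rats 18 were.

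Across the ligand-treated obese rats the pattern was read from group means, without a test. Of those groups, 1 stood apart: 1 of the 3 liver arrays of the troglitazone group had a fibre marker sum of 30274, where the other two had 1284 and 1589. Acta1 had a liver mean of 4682 in that group when all 3 arrays were averaged. Of the 870 probe sets, 663 kept a margin of 1 or more in pioglitazone rats, 701 in rosiglitazone, 620 in troglitazone and 688 in AG035029 rats, against 736 in untreated obese rats. Of the 849 lower ones, 544, 626, 514 and 622 did, against 618. Without the liver array that stood apart, which was left out after seeing the data, the troglitazone counts were 626 and 511. Since the members had to pass 1 in lean rats and not in these, some loss follows from the choice alone. In all 5 obese groups 856 of the 870 and 766 of the 849 kept the direction against both tissues, and 856 and 762 without that array. Lipogenic genes differed among themselves in treated muscle, and those named here were chosen after their values were seen. The mean for Scd was 304 in lean and 988 in untreated obese muscle and 6660 to 18738 in the ligand groups, and that for Fasn was 127, 439 and 1538 to 6968. Acaca, acetyl-CoA carboxylase, had muscle and liver means of 679 and 874 in lean and 565 and 2381 in untreated obese rats. Those means were 931 and 2207 in AG035029, 881 and 2208 in rosiglitazone, 1394 and 1660 in pioglitazone and 2173 and 1781 in troglitazone rats. Muscle thus lay below liver for Acaca in each group but troglitazone. The adipocyte marker sum in muscle differed beside Scd and Fasn, with 7360 to 9596 in lean, 7461 to 14867 in untreated obese, 22866 to 38108 in pioglitazone, 19188 to 24691 in rosiglitazone, 29310 to 50428 in troglitazone and 18111 to 30827 in AG035029 muscle, and its part in this was not tested. On the higher side the other tissue changed level: Fabp3 had adipose means of 176 in lean and 405 in untreated obese rats and 8914 to 13018 in the ligand groups, where its muscle means were 9051 to 13916. Cpt1b had adipose means of 510, 567 and 2208 to 3362. Myh4 had means of 29282 to 33719 in treated muscle, at most 14.9 in treated adipose tissue and at most 72.9 in treated liver.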

How the data were processed

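The authors deposited MAS5 signal intensities, linear and scaled per array, for 54 Affymetrix Rat Expression 230A arrays of pooled RNA, with MAS5 named per the submitters' processing notes and its version not given in the sources used here. No detection calls were used. The number of arrays limits the precision. From these values log2(signal + 20) was taken, 57 control probe sets were left out, and 9519 of 15866 probe sets with a mean over the 9 lean arrays above the 40th percentile were tested. Limma 3.58.1 in R 4.3.3 (lmFit, contrasts, eBayes with trend, Benjamini-Hochberg, adjusted p under 0.05) was fitted to the 3 lean groups, with 6 residual degrees of freedom, and again to the untreated obese groups. Obese minus lean was fitted on both together. The script was tested on simulated data. The gene lists and the contrast were chosen with earlier results of these data known. Genes were named by rule: the 12 highest and 12 lowest margins without overlap of arrays, up to 4 set-apart members of each list and up to 3 called the other way, both forms of each isoform pair, up to 6 genes a direction of the obese minus lean test, and markers of other cell types. Other genes were chosen after their values were seen. For genes with several probe sets the one with the highest mean was used. Of all probe sets, 12783 had 1 symbol, 312 several and 2771 none in the platform annotation. Alternatives were the pseudocount, filter, normalization, trend, array weights, threshold, all arrays in 1 fit, a replicate block and each array left out.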

Additional observations from a re-analysis of the deposited data

Results flagged for a closer look

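The contrast of muscle with the mean of the other tissues differed between untreated obese and lean rats, by a test of the difference itself, for 7 genes. The values are obese minus lean in log2(signal + 20), from limma with 3 arrays a group. Tff3 had −2.06, Pparg −1.84, Prkaa2 −1.41, Me1 −1.52 and Plin2 −1.53. Fmo1 had 1.49 and Rab34 1.42. Me1, malic enzyme, read 1609 to 2132 in lean and 1467 to 1966 in obese muscle, 2109 to 3902 and 5422 to 7009 in adipose tissue, and 444 to 685 and 1433 to 2114 in liver (adjusted p = 0.0369). Fmo1, a flavin monooxygenase, read 301 to 386 in lean and 291 to 646 in obese muscle, and 1678 to 2039 in lean and 512 to 781 in obese liver (adjusted p = 0.0471). Rab34, a small GTPase, read 85.0 to 157 in lean and 242 to 327 in obese muscle (adjusted p = 0.0471). The call was lost under 2 of 27 alternatives for Tff3, 2 of 28 for Pparg, 3 for Prkaa2, 14 for Me1, 15 for Plin2, 20 for Fmo1 and 19 for Rab34. The highest adjusted p over those alternatives was 0.304, 0.0610, 0.144, 0.144, 0.305, 0.122 and 0.133 in the same order.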

How the results depend on the processing

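Of 207 alternative values for 9 counts, 193 stayed within 1.5 times the main count. The others all concerned the 7 probe sets of obese minus lean, which became 3 with no filter on low values, 3 with no trend, 4 with array weights and 0 at an adjusted p of 0.01, against 791 at an unadjusted p under 0.05. Leaving out each array in turn gave 0 (without muscle replicate 3 of the lean rats) to 18 (without liver replicate 1 of the obese rats). The count was 13 without liver replicate 2 and 14 without muscle replicate 3 of the obese rats. Leaving out arrays gave 803 to 907 for the 870 higher probe sets and 794 to 906 for the 849 lower ones. The share of higher calls against the mean of the other tissues was 46.2%, 49.0% under quantile normalization and 50.5% under median centring. Of 151 named genes, 142 kept their side of the threshold under every alternative run. Direction reversed in 3 genes not set apart: Ckb (quantile 0.05, arrays left out −0.39 to 0.04), Phkg2 (quantile 0.07, median centring 0.07, arrays left out −0.14 to 0.15) and Hk2 (quantile 0.13, median centring 0.05, array weights 0.04, arrays left out −0.19 to 0.28). The cause was not tested. With the replicate number as a block, 876 probe sets were higher and 855 lower by 1 or more and 7 were called in obese minus lean. Samples of 1 number did not deviate together: their residuals correlated at −0.0279 to 0.0583 over 9 pairs, so the numbers were not taken as pairs. Values near background limit the size of the folds: 62 of the 849 had a muscle mean under 50, and 26 of the 870 had means under 50 in both other tissues.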

Other observations

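Some of the widest differences lay outside the lists described, in genes named after their values were seen. Mypn, myopalladin of the Z-disc, read 8966, 8474 and 7794 in lean muscle, 4.20 to 8.20 in adipose tissue and 10.4 to 18.7 in liver, a margin of 7.89. Klhl41, a kelch protein of the sarcomere, had a margin of 6.89, Nrap, an actin-anchoring protein, 6.67, Trim72, which takes part in membrane repair, 6.23, and Rtn2, a reticulon, 7.18. H19, a long non-coding RNA from an imprinted locus, read 25320, 27397 and 25062 in muscle, 205 to 337 in adipose tissue and 341 to 549 in liver. On the lower side stood Scarb1, the receptor for high-density lipoprotein, with 45.8 to 53.7 in muscle and 633 to 1140 elsewhere, and Pde3b, a phosphodiesterase in insulin signalling, with 33.6 to 57.2 and 571 to 1864. Igf1, a growth factor, read 1226, 1210 and 912 in muscle, 6462 to 10077 in adipose tissue and 12018 to 21951 in liver.

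Probe sets of 6 genes were called in opposite directions: Asrgl1 (1.39 and −2.73), Atp2a2 (2.56 and −2.13), Hnrnpa2b1 (1.17 and −1.30), Pdlim5 (7.03 and −2.16), Taf6 (0.78 and −1.71) and Tpm3. Probe sets without a symbol also stood high. The one with the highest margin, 6.71, read 6191, 4472 and 5112 in muscle and 8.60 to 87.5 elsewhere.

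In all 4 ligand groups muscle no longer lay above both tissues for 1 of the 870 probe sets and no longer below both for 4 of the 849, by group means and without a test. The former was of Mbp, whose adipose mean was 250 in lean and 890 to 1641 in ligand-treated rats. The latter were of Car3, Clu, Cxcl12 and Cavin3. Car3, a carbonic anhydrase, had liver means of 7305 in lean, 551 in untreated obese and 435 to 897 in ligand-treated rats, against 3268, 3051 and 4293 to 7235 in muscle, and its other probe set was not set apart in lean rats. Clu, clusterin, had adipose means of 5510, 2844 and 1143 to 1721.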
